A study of Mus musculus with 60 samples.

Results

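The Notch receptors Notch1, Notch2 and Notch3, the ligands Jag1, Jag2 and Dll1, the DNA-binding partner Rbpj and the targets Hes1, Hey1 and Nrarp were followed through 3 experiments on mouse liver organoids. The 10 genes were found by matching Ensembl gene identifiers to these symbols. All 10 had a row among the 23440 genes of the culture table and the 28773 genes of the single organoid table, and 9 among the 23068 genes of the bulk passage table, which had no row for Hey1. The organoids were intrahepatic cholangiocyte organoids, which are hollow epithelial structures grown from bile duct cells, and all came from livers of male C57BL/6N mice about 3 months old with no other allele or treatment given. In the culture experiment, 3 dome cultures, embedded in drops of Matrigel, were compared with 3 suspension cultures, shaken in medium with little Matrigel, and the starting material came from pools of 2, 4 and 3 mice. In the single organoid experiment, 42 organoids were picked from suspension cultures of Sets 1 to 4, each set from the liver of 1 mouse, and 35 were kept after quality control in the study: 8 from Set 1 at passage 11, 10 from Set 2 and 5 from Set 3 at passage 3, and 12 from Set 4 at passage 4. In the bulk passage experiment, whole cultures of 3 of these sets, 1, 3 and 4, were sequenced early (passage 4) and late (passage 11) with 2 technical replicates, and the sources used here do not say whether they grew as domes or in suspension. Between sets of single organoids, the mouse, the passage and the history of the culture differ at once and cannot be told apart.

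Notch signalling passes between touching cells. A Jagged or Delta-like ligand on one cell binds a Notch receptor on its neighbour, the receptor is cut by an ADAM protease and then by the gamma-secretase complex, and its freed intracellular part joins RBPJ and Mastermind proteins on DNA to switch on genes such as Hes1, Hey1 and Nrarp. In the liver, Jag1 and Notch2 are known for their role in the formation of bile ducts, and loss of either underlies Alagille syndrome, in which bile ducts are too few.

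Levels are given as CPM, which are counts scaled to library size, here with the trimmed mean of M-values (TMM), which allows for differences in library composition. The culture libraries held 1776490 to 14761853 counts, the bulk passage libraries 1486347 to 5532630 after technical replicates were summed, and the 35 single organoids 1059002 to 11175868 with a median of 2554162, so that 1 CPM is about 1 count in the smallest library. Scaling mattered between domes and suspension, where the median log2 fold-change of all genes was −0.04 with TMM and −0.42 with library totals alone. With TMM, 1907 genes were higher and 1872 lower in domes, against 848 and 3040 with library totals. Between Sets 3 and 4 this median moved from 0.00267 to 0.106. The 8 ductal markers, among them Epcam, Krt19 and Sox9, summed to between 5282 and 29740 CPM over all libraries used. Of 8 endothelial and 9 mesenchymal markers, whose cells carry Notch receptors and ligands in the liver, 3 to 5 and 1 to 4 had counts in a group, with sums of 0 to 3.84 CPM and 0 to 0.795 CPM over all libraries. The endothelial markers Cdh5 and Kdr and the mesenchymal markers Pdgfrb, Dcn and Lrat were at 0 in every group.

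Jag1 (ENSMUSG00000027276, chr2:137081456-137116644, minus strand), Notch2 (ENSMUSG00000027878, chr3:98013527-98150361, plus strand), Dll1 (ENSMUSG00000014773, chr17:15367354-15376872, minus strand) and Rbpj (ENSMUSG00000039191, chr5:53466152-53657362, plus strand) are protein-coding genes on GRCm38, and counts are per gene. Their promoters are shown because these 4 members carried most of the differences below. The sequences are from RefSeq (GRCm38.p6) and stop where GENCODE annotates an exon, with the RBPJ core motif TGGGAA in capitals wherever it occurs on either strand. The windows are chr2:137116645-137116770 for Jag1 (minus strand), chr3:98013288-98013526 for Notch2 (plus strand), chr17:15376933-15377182 for Dll1 (minus strand) and chr5:53590096-53590213 for Rbpj (plus strand). The Rbpj window lies inside the gene, before an internal start site, since other annotated transcripts begin upstream of it.
Jag1: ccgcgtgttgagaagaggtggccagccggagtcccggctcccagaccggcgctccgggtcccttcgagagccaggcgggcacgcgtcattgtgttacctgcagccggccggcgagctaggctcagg
Notch2: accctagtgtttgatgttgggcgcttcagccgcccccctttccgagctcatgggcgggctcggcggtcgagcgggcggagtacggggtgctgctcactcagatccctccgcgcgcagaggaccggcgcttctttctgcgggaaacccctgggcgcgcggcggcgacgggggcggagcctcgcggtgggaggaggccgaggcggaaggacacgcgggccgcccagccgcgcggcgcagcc
Dll1: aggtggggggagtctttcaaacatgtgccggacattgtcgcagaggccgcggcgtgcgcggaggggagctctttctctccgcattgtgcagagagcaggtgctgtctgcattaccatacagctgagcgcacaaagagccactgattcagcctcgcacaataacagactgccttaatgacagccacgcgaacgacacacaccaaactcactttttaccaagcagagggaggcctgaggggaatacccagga
Rbpj: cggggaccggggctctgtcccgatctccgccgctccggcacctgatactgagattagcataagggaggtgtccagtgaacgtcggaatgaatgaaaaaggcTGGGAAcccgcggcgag
Of the 10 members, 8 had entries in the promoter table, with 10 windows in all. Hes1 and Hey1 had no entry. TGGGAA, read on both strands over the 250 bases before the start site, was found in 21.6% of 32851 windows and, among the members, only in those of Rbpj. The Rbpj window printed above held it once, 149 bases before the start site, and a second match on the other strand lay 65 bases before the start site. The longer form CGTGGGAA, which contains the shorter one, was in 0.636% of all windows and in none of the members. The printed windows were rich in G and C, with 70.6% for Jag1, 74.1% for Notch2, 61.0% for Rbpj and 56.0% for Dll1, against a median of 52.4% over all windows of 250 bases.

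Jag1 was lower in domes than in suspension cultures, whereas the target Hes1 differed by less than its error. Notch2 was also lower in domes, but it passed the filter on low counts only through the suspension cultures. The question was whether the culture format is accompanied by a difference in these genes. Of the 7 members that passed the filter on low counts, 2 were differentially expressed, both lower in domes (28.6%), against 29.8% of the 12699 genes tested. This count includes Notch2, so no conclusion about the members is drawn from the share. Adj. P-values throughout are those of the quasi-likelihood test in edgeR with Benjamini-Hochberg adjustment over all genes tested. For these bulk samples, fewer cells of a type and less RNA per cell cannot be told apart.

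Jag1, the ligand best known from bile ducts, was at 174, 187 and 127 CPM in domes and 396, 421 and 276 CPM in suspension cultures 1, 2 and 3. Every dome lay below every suspension culture, and the difference was a log2 fold-change of −1.16 (SE 0.24, edgeR adj. P-value 0.00682). The receptor Notch2 was at 2.51, 0.733 and 2.75 CPM in domes and 11.4, 4.02 and 5.51 CPM in suspension. The groups did not overlap and the log2 fold-change was −1.59 (SE 0.49, edgeR adj. P-value 0.0338), but the dome values rest on 33, 1 and 5 counts. The filter asked for 0.748 CPM in at least 3 libraries, which 3 of 3 suspension cultures and 2 of 3 domes reached. Notch2 was thus tested only because of the suspension cultures, where it was high. The call for Notch2 was lost when dome 1, 2 or 3 or suspension 1 or 3 was omitted, with edgeR adj. P-values of 0.0933, 0.0606, 0.0536, 0.125 and 0.0602. Jag1 and Notch2 were thus the 2 of 7 tested members without overlap between the cultures, a pattern seen for 47.4% of all genes tested.

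Rbpj, the factor through which the receptors act on DNA, was at 3.50, 8.07 and 1.65 CPM in domes and 9.47, 10.6 and 6.68 CPM in suspension. Dome 2 lay above suspension 3, so the groups overlapped, and the log2 fold-change of −1.15 (SE 0.43) had an edgeR adj. P-value of 0.0666. Deviations of cultures with the same number from their group means correlated weakly (0.153, 0.165 and 0.191), and the labels do not say that the number is the pool. With the number as a block Rbpj was called (−1.21, SE 0.36, edgeR adj. P-value 0.0218), in a fit that called 31.6% of all genes. Omission of dome 2 also gave a call (−1.50, edgeR adj. P-value 0.0168).

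Hes1, a transcriptional repressor and the classical Notch target, was at 170, 233 and 172 CPM in domes and 173, 195 and 174 CPM in suspension. The values overlapped, and the log2 fold-change was 0.08 (SE 0.20, edgeR adj. P-value 0.79). With library totals in place of TMM it was −0.33 (SE 0.20), so the sign of this small difference depends on the scaling. Nrarp, a target that feeds back on the pathway, was at 0.761, 0.733 and 1.65 CPM in domes and 0.631, 0.946 and 1.17 CPM in suspension, with 1 to 17 counts a library. Its log2 fold-change was −0.10 (SE 0.54, edgeR adj. P-value 0.907).

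The second Jagged ligand, Jag2, was at 8.76, 3.67 and 11.0 CPM in domes and 8.00, 9.70 and 7.44 CPM in suspension (log2 fold-change −0.02, SE 0.33, edgeR adj. P-value 0.977). The Delta-like ligand Dll1 was at 1.52, 2.20 and 2.20 CPM in domes and 0.210, 0.473 and 2.00 CPM in suspension. Suspension 3 alone overlapped the domes, and the log2 fold-change was 0.61 (SE 0.67, edgeR adj. P-value 0.512), or 2.33 without suspension 3 (edgeR adj. P-value 0.071). Counts of Dll1 were 20, 3 and 4 in domes and 1, 2 and 29 in suspension, so the value without suspension 3 rests on very few. The level asked for by the filter was reached in 3 of 3 domes and 1 of 3 suspension cultures, so Dll1 was tested only because of the domes. Notch1, Notch3 and Hey1 did not pass the filter. Notch1 had 3 counts in the domes and 3 in the suspension cultures in all, Hey1 2 and 1, and Notch3 13 and 7.

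**Figure D1:**
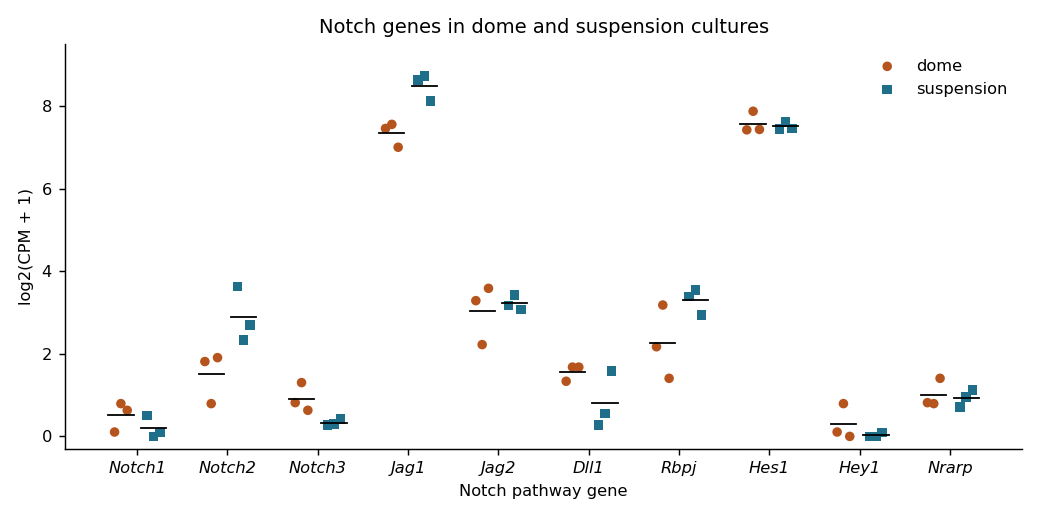
Expression of the 10 Notch genes in 3 dome cultures (circles) and 3 suspension cultures (squares), as log2(CPM + 1) with TMM scaling; each point is a culture and each bar the mean. Jag1 and Notch2 are the tested genes whose groups do not overlap, at 127 to 187 against 276 to 421 CPM for Jag1, while Hes1 lies between 170 and 233 CPM in all 6 cultures. Notch2 passed the filter on low counts only through the suspension cultures.

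Other genes of the pathway were taken from 6 lists with 62 genes, of which 49 were tested, 5 were higher and 7 lower in domes (24.5% called, against 29.8% of all genes). The 7 lower genes were all among the 16 nuclear cofactors, whose median log2 fold-change was −0.96 against −0.04 for all genes. They included the Mastermind coactivator Maml2 (−1.58, SE 0.28), the corepressor Ncor1 (−1.56, SE 0.29), the corepressor Spen (−1.30, SE 0.32) and the acetyltransferases Crebbp (−1.28, SE 0.25) and Ep300 (−1.24, SE 0.41), as well as the deacetylase Hdac2 (−1.003, SE 0.19). Most of these proteins serve many transcription factors besides RBPJ. Higher in domes were 2 of 10 cleavage genes, which encode the gamma-secretase subunits nicastrin (Ncstn, 1.33, SE 0.25) and PEN-2 (Psenen, 1.23, SE 0.22). Of 7 tested genes from the list of other targets, 3 were higher: the cell cycle inhibitor Cdkn1a (2.25, SE 0.42), Hes6 (0.77, SE 0.18) and the helix-loop-helix inhibitor Id1 (0.60, SE 0.19). Whether Notch signalling drives these 3 genes here was not tested, so they are no measure of Notch activity. None of the 4 glycosylation and 11 endocytosis and ubiquitin genes tested was called.

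Proliferation markers moved with the culture format. All 8 of 8 were lower in domes, with a sum of 139 to 305 CPM against 597 to 700 CPM in suspension. Of the 8 ductal markers 4 were higher and 1 lower in domes, with sums of 14150 to 29740 CPM against 9956 to 11060 CPM, and the highest rise was that of Krt19 (log2 fold-change 1.995, edgeR adj. P-value 0.00381). Of 8 tested hepatocyte markers 3 were higher and 1 lower, with sums of 614 to 955 CPM against 313 to 687 CPM and the largest difference in Apoa1 (4.94, edgeR adj. P-value 0.00925). Of the macrophage markers, 5 of 7 had counts in domes and 4 of 7 in suspension, with sums of 207 to 281 and 524.5 to 649 CPM. Most of this sum is Cd14, which was lower in domes (−1.60), while Cd68 was higher (3.06) and Clec4f and Lyz2 were at 0 in both. The part of these in the differences of the Notch genes was not tested.

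Dll1 and Hes1 were lower in bulk cultures at passage 11 than at passage 4. Dll1 averaged 32.0 ± 3.24 CPM at passage 4 and 3.19 ± 1.23 CPM at passage 11 (SD, n = 3), while the difference in Hes1 was smaller. The bulk passage experiment asked what changes in the same set between these passages, which are given here as labelled. Of 7 tested members, 2 were called, both lower at passage 11 (28.6%), against 20.3% of 13738 genes tested. With the set as a block, since both passages of a set come from the same mouse, Jag1 was called as well, and 21.5% of all genes were called.

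Dll1 was at 28.3, 33.8 and 34.0 CPM at passage 4 in Sets 1, 3 and 4 and at 3.14, 1.99 and 4.45 CPM at passage 11. It fell in each set, the groups were far apart, and the technical replicates of a set lay between 27.9 and 36.4 CPM at passage 4 and between 1.52 and 5.59 CPM at passage 11. The log2 fold-change was −3.47 (SE 0.26, edgeR adj. P-value 0.000164), from 109, 176 and 193 counts to 14, 10 and 7. Over 16 alternatives it stayed between −3.65 and −3.10, with the highest adj. P-value at 0.002.

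Hes1 was at 324, 296 and 298 CPM at passage 4 and 206, 212 and 253 CPM at passage 11. Every passage 4 value lay above every passage 11 value, with a log2 fold-change of −0.45 (SE 0.14, edgeR adj. P-value 0.0402). This call stood close to the threshold, and omission of any 1 library except passage 11 of Set 4 ended it, with edgeR adj. P-values of 0.0831 to 0.14.

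Jag1 was at 487, 278 and 219 CPM at passage 4 in Sets 1, 3 and 4 and at 211, 244 and 102 CPM at passage 11. It was lower at passage 11 in each of the 3 sets, but Set 3 changed little and the groups overlapped. Without the block the log2 fold-change was −0.80 (SE 0.33, edgeR adj. P-value 0.117), and with the set as a block it was −0.82 (SE 0.20, edgeR adj. P-value 0.0132). Rbpj was at 6.74, 10.2 and 9.15 CPM at passage 4 and 4.49, 5.97 and 3.82 CPM at passage 11, which did not overlap (−0.82, SE 0.28, edgeR adj. P-value 0.0654). With Dll1 and Hes1 this made 3 of 7 tested members without overlap, against 39.5% of all genes.

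Notch2 was at 13.998, 11.3 and 12.7 CPM at passage 4 and 7.41, 15.5 and 10.8 CPM at passage 11. It was lower in Sets 1 and 4 and higher in Set 3 (log2 fold-change −0.15, SE 0.27, edgeR adj. P-value 0.739). Jag2 was at 27.997, 19.6 and 16.7 CPM at passage 4 and 20.6, 18.1 and 19.1 CPM at passage 11, with overlapping groups (−0.14, SE 0.22, edgeR adj. P-value 0.689). Nrarp stayed below 1 CPM in all 6 samples (0.36, SE 0.66, edgeR adj. P-value 0.743). Notch1, with 6 counts at either passage, and Notch3, with 9 counts at passage 4 and 3 at passage 11, were not tested.

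**Figure D2:**
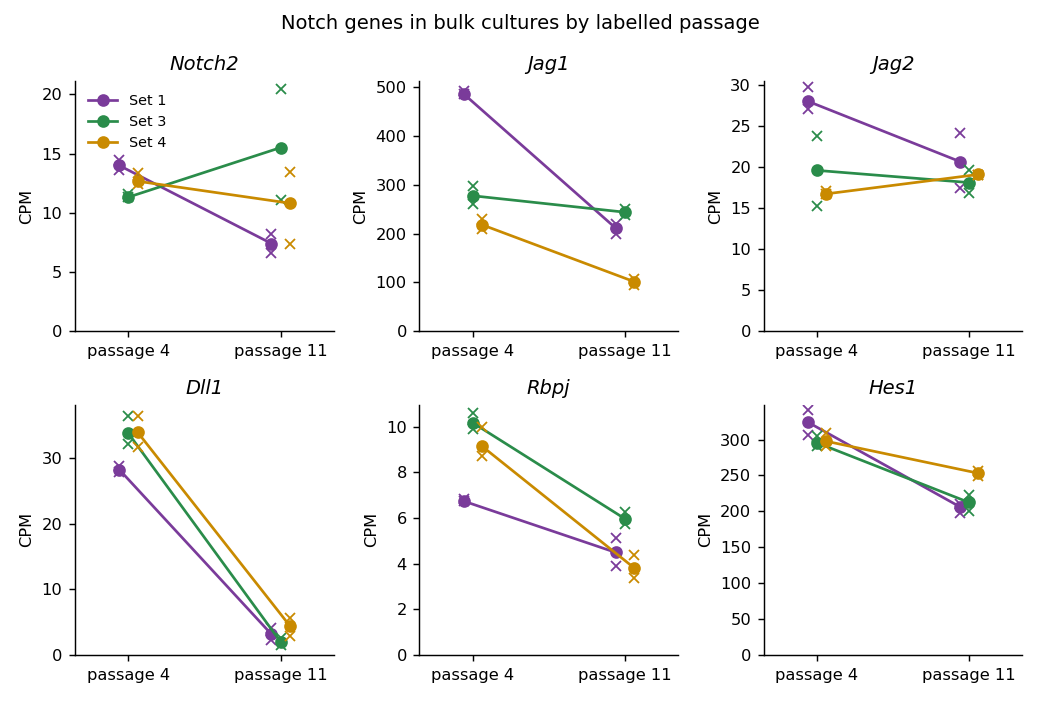
Expression (CPM, TMM scaling) of 6 Notch genes in the bulk passage experiment, with the labelled passage on the x axis and 1 colour for each of Sets 1, 3 and 4; lines join the samples of a set, dots are the summed technical replicates and crosses the single ones. Dll1 drops from 28.3 to 34.0 CPM to 1.99 to 4.45 CPM in all 3 sets, and Notch2 goes down in Sets 1 and 4 and up in Set 3.

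Of the 62 other pathway genes, 51 were tested, with 3 higher and 9 lower at passage 11 (23.5% called, against 20.3%). Among the endocytosis and ubiquitin genes, 3 of 13 fell, including the ligase Mib2, which acts on Notch ligands in the sending cell (−2.04, SE 0.28), and the Deltex family member Dtx3l (−1.34, SE 0.20). Mib2 was at 15.3 to 27.7 CPM at passage 4 and 3.82 to 5.57 CPM at passage 11. Of the 16 nuclear cofactors, 4 fell and 1 rose. Among them were the acetyltransferases Ep300 (−1.57, SE 0.34) and Kat2b (−1.02, SE 0.31), the coactivator Maml2 (−0.80, SE 0.25) and the corepressor Ctbp1 (0.57, SE 0.14). Kat2b was no longer called with the set as a block (edgeR adj. P-value 0.056). Cdkn1a fell (−0.82, SE 0.26), while Hes6 (0.65, SE 0.15) and the glycosyltransferase Rfng (0.80, SE 0.24) rose.

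Proliferation markers were higher at passage 11 for 7 of 8, with sums of 270 to 300 CPM at passage 4 and 611 to 846 CPM at passage 11. The summed macrophage markers, with 4 of 7 detected at either passage and Clec4f and Adgre1 at 0, were at 876 to 1159 CPM at passage 4 and 381 to 624 CPM at passage 11. Cd14 made up most of this sum and was lower at passage 11 (−1.15). Hepatocyte markers were higher for 2 of 8 tested, with sums of 341 to 756 CPM at passage 4 and 818 to 1169 CPM at passage 11, and the 8 ductal markers, of which 1 was higher and 1 lower, summed to 7826 to 10250 and 9897 to 10530 CPM. Their part in the changes of Dll1 and Hes1 was not tested. The text of the study gives the opposite direction, with proliferation and cell cycle terms among the genes lower at passage 11. The legend of its figure, however, describes the same panel as terms higher at passage 11. No value here checks the passage labels of these libraries independently, and every direction given for the passages would turn if the labels were exchanged. Among single organoids the proliferation markers went the other way, with lower levels in Set 1 at passage 11 than in Sets 2 and 4 at passages 3 and 4.

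In single organoids, Dll1 was lower in Set 1 than in the other 3 sets, and Rbpj was lower in Set 4 than in the other 3. Each of these calls except that of Dll1 against Set 3 was lost under some alternatives. The comparison asked how far organoids of different sets differ. Notch1, which passed the filter on low counts through Set 1, is described without a test, and 7 members remained. Of these, 1 was called between Sets 1 and 2 (against 14.3% of all 13927 genes), 1 between Sets 1 and 3 (9.43%), 2 between Sets 1 and 4 (20.0%), 0 between Sets 2 and 3 (3.93%), 1 between Sets 2 and 4 (12.4%) and 2 between Sets 3 and 4 (11.6%), which is 7 of 42 tests. Organoids of a set share a mouse and a culture, so the P-values measure the spread between organoids and not between animals.

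Notch1 ranged from 0.777 to 6.03 CPM in Set 1 with a median of 2.77, from 0 to 1.28 CPM in Set 2 with a median of 0.311, from 0 to 0.707 CPM in Set 3 with a median of 0.361, and from 0 to 1.56 CPM in Set 4 with a median of 0.734. Of the 8 organoids of Set 1, 7 lay above all 27 organoids of the other sets. These levels rest on few counts, 82 in all of Set 1 and 12, 5 and 27 in Sets 2, 3 and 4. The filter asked for 1.17 CPM in at least 5 organoids, which 7 of 8 organoids in Set 1 and 3 of 27 others reached, so that Notch1 could be tested only because it was high in Set 1. The end of Notch1 overlaps the antisense transcripts Gm13568 and 0610009E02Rik, and the sources used here do not say whether counting used strand, so that reads from the overlap are uncertain. Gm13568 had medians of 1.85, 2.30, 1.80 and 1.84 CPM in Sets 1 to 4. In bulk cultures of Set 1, Notch1 was at 0.518 CPM at passage 4 and 0.898 CPM at passage 11.

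Dll1 had a median of 0.803 CPM in Set 1 (0 to 1.98), 1.99 in Set 2 (0 to 7.21), 3.25 in Set 3 (2.83 to 6.32) and 2.19 in Set 4 (0.742 to 3.80). Counts were few, with 25, 76, 47 and 74 in all of Sets 1 to 4 and 0 to 9 an organoid in Set 1. Every organoid of Set 1 lay below every organoid of Set 3, while 5 of 10 in Set 2 and 7 of 12 in Set 4 lay above all of Set 1. The share of all genes with such patterns between sets was not counted, here or for the other members. Dll1 was lower in Set 1 by log2 fold-changes of −1.82 (SE 0.43, edgeR adj. P-value 0.00355) against Set 2, −2.18 (SE 0.48, edgeR adj. P-value 0.00181) against Set 3 and −1.25 (SE 0.43, edgeR adj. P-value 0.0467) against Set 4. Set 1 is the only set picked at passage 11. The levels differed from those in bulk at passage 4, where Dll1 was at 34.0 CPM in Set 4, itself picked at passage 4. Single organoids of all sets lay below every bulk culture at passage 4 (28.3 to 34.0 CPM). Bulk cultures at passage 11 were at 1.99 to 4.45 CPM, domes at 1.52 to 2.20 CPM and suspension cultures at 0.210 to 2.00 CPM. Bulk libraries were made from total RNA and single organoid libraries from captured mRNA, in separate experiments. In Set 4, Rbpj and Jag1 also differed, at 9.15 and 219 CPM in bulk at passage 4. Its single organoids were at 14.4 to 37.8 CPM for Rbpj and 396 to 1484 CPM for Jag1. Notch2, Jag2 and Hes1 in this bulk culture lay within the range of these organoids. The reason for the higher level of Dll1 in bulk at passage 4 was not tested. The call against Set 4 was lost when organoid 3, 4, 5 or 6 of Set 3 was omitted, with edgeR adj. P-values of 0.0521 to 0.0563, and also without a filter (0.0787) and with library totals (0.0585). With every library thinned to the smallest total, neither the difference from Set 4 (−0.74, edgeR adj. P-value 0.549) nor that from Set 2 (−1.72, edgeR adj. P-value 0.0726) was called.

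Rbpj had medians of 43.9, 43.3, 46.9 and 25.3 CPM in Sets 1 to 4, with ranges of 14.7 to 67.3, 20.8 to 60.7, 25.1 to 59.2 and 14.4 to 37.8 CPM. The ranges overlapped, but 6 of 8 organoids in Set 1, 6 of 10 in Set 2 and 3 of 5 in Set 3 lay above all of Set 4. The log2 fold-changes over Set 4 were 0.74 (SE 0.23) for Set 1, 0.72 (SE 0.22) for Set 2 and 0.78 (SE 0.26) for Set 3, with edgeR adj. P-values of 0.0262, 0.0219 and 0.0397. With all 42 organoids, none of the 3 was called, at 0.55, 0.42 and 0.46 and edgeR adj. P-values of 0.146, 0.29 and 0.342. None was called after thinning to the smallest total either (edgeR adj. P-values 0.0812, 0.0569 and 0.0621). By limma-voom, the study's own test, Sets 1 and 3 were not called over Set 4 (limma-voom adj. P-values 0.0559 and 0.0542). The call between Sets 3 and 4 was also lost when organoid 3, 4 or 6 of Set 3 was omitted.

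Jag1 was abundant and variable, with medians of 1026, 772, 1173 and 727 CPM in Sets 1 to 4. The lowest and highest organoids were at 503 and 1766 CPM in Set 1, 425 and 1836 CPM in Set 2, 903 and 2225 CPM in Set 3, and 396 and 1484 CPM in Set 4. Only Sets 3 and 4 differed among the 6 pairs (0.83, SE 0.28, edgeR adj. P-value 0.0426), and 8 of 12 organoids in Set 4 lay below all of Set 3. Without organoid 4 or 6 of Set 3 the adj. P-value was 0.185 or 0.125, and with all 42 organoids 0.536.

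Notch2 had medians of 16.7, 19.3, 18.4 and 17.2 CPM in Sets 1 to 4, within ranges of 11.4 to 26.8, 7.36 to 41.7, 10.6 to 31.6 and 11.3 to 41.4 CPM. Hes1 had medians of 318.5, 310, 342 and 319 CPM, within ranges of 220 to 569, 200 to 449, 268 to 395 and 248 to 481 CPM. For Hes1 the 6 log2 fold-changes lay between −0.08 and 0.05, each smaller than its SE of 0.15 to 0.20. For Notch2 they lay between −0.41 and 0.17 with SEs of 0.23 to 0.31. Jag2 had medians of 16.9, 15.4, 14.1 and 15.03 CPM and Nrarp of 0.355, 0.722, 0.707 and 0.615 CPM, and neither was called between any 2 sets. Notch3 and Hey1 were not tested. Notch3 had 4, 7, 0 and 6 counts and Hey1 1, 0, 0 and 1 in Sets 1 to 4, where a count of 0 allows up to 0.244 CPM over the 5 organoids of Set 3 and up to 0.123 CPM over the 10 of Set 2, for counting error only.

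**Figure D3:**
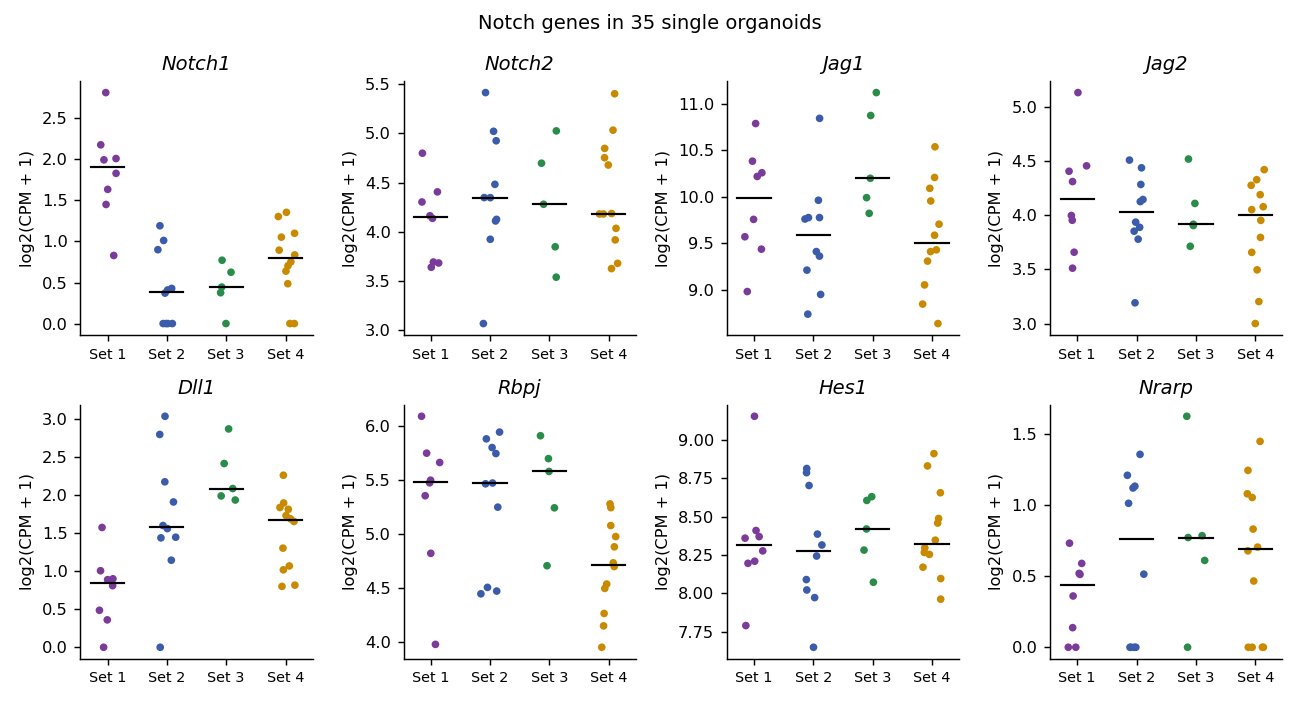
Expression of 8 Notch genes in 35 single organoids as log2(CPM + 1) with TMM scaling; each point is an organoid, each bar the median of a set, and every panel has its own scale that need not start at 0. For Notch1, described without a test, 7 of 8 organoids in Set 1 lie above all others, and for Dll1 every organoid of Set 1 lies below every organoid of Set 3. The share of all genes with such patterns was not counted.

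**Figure D4:**
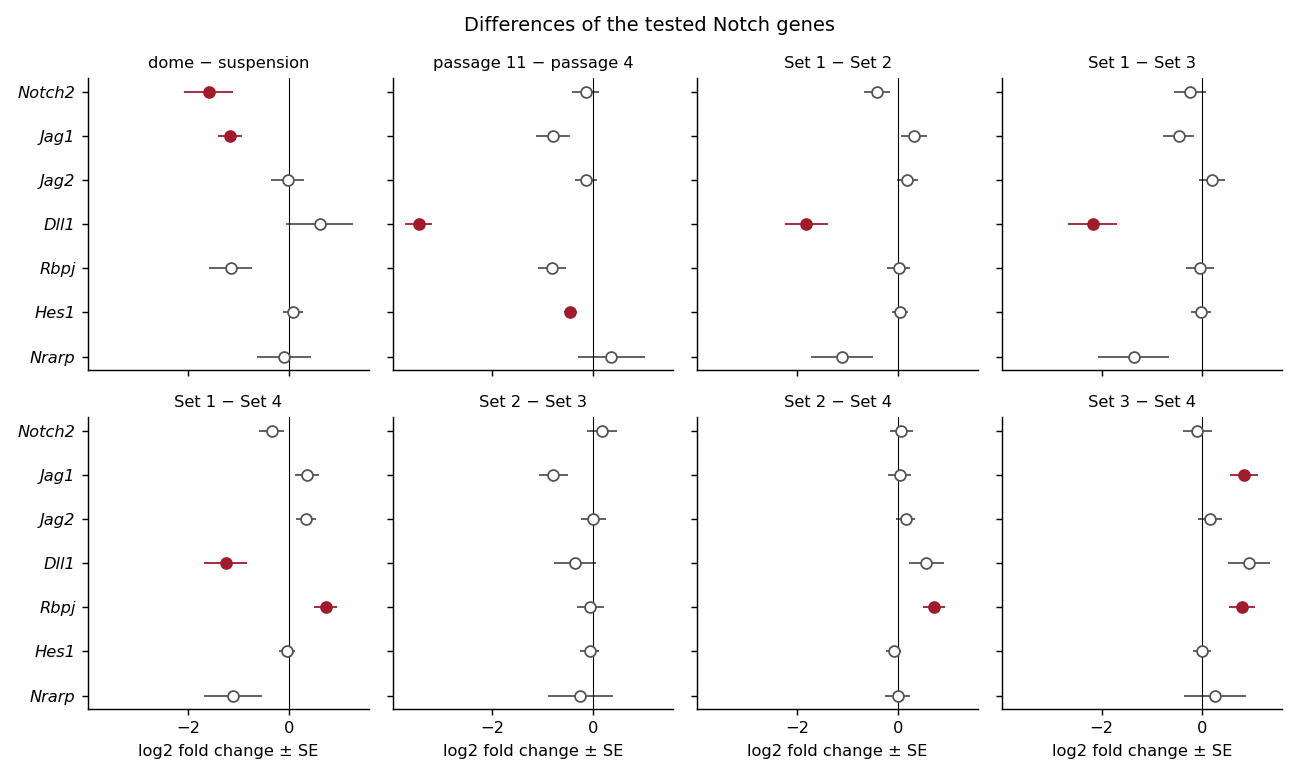
Log2 fold-changes of 7 tested Notch genes in the 8 comparisons, with bars of 1 SE; filled red points are called (edgeR adj. P-value below 0.05) and open points are not. Dll1 is lower in Set 1 than in Sets 2, 3 and 4. In bulk cultures it is lower at passage 11 than at passage 4, where its level lay above that of every single organoid. Bulk libraries were made from total RNA and single organoid libraries from captured mRNA. Hes1 lies near 0 in every comparison except the passages, where it is −0.45. Between domes and suspension, Notch2 was tested only because it was high in suspension.

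Of the 62 other pathway genes, 50 were tested between sets. Set 1 had 3 higher and 2 lower against Set 2 (10% called), 2 higher and 0 lower against Set 3 (4%), and 9 higher and 1 lower against Set 4 (20%), which is close to the background in each case or below it. Id1 was higher in Set 1 than in Set 2 (0.94, SE 0.16) and Set 3 (0.78, SE 0.20). The Deltex family member Dtx3l was lower in Set 1 than in Set 2 (−1.33, SE 0.29), where it reached 84.2 CPM in 1 organoid. Numb, an inhibitor of Notch receptors that is passed on unequally at cell division, was higher in Set 1 than in Set 4 (1.14, SE 0.26), with medians of 10.2 and 4.73 CPM. Between Sets 2 and 3 none of the 50 was called, against 3.93% of all genes. Between Sets 2 and 4 there were 4 higher and 3 lower (14% called, against 12.4% of all genes). Between Sets 3 and 4 there were 4 higher and 4 lower (16% called, against 11.6% of all genes). The acetyltransferase Kat2b was lower in Set 4 than in Set 1 (0.86, SE 0.24), Set 2 (0.69, SE 0.23) and Set 3 (0.94, SE 0.27). The gamma-secretase subunit Psen2 was higher in Set 1 than in Set 2 (0.67, SE 0.15). Proliferation markers were lower in Set 1 than in Set 4 for 6 of 8, in Set 1 than in Set 2 for 3 of 8 and in Set 1 than in Set 3 for 0 of 8. Their sum ranged from 365 to 1172 CPM in Set 1 and from 651 to 1575 CPM in the other sets, and its part in the differences of Notch1 and Dll1 was not tested. Hepatocyte markers were higher in Set 1 for 3 of 8 tested against Set 2, 2 of 8 against Set 3 and 4 of 8 against Set 4, with none lower, and Apob was among them each time (log2 fold-changes of 3.32, 1.83 and 3.69). The sums of the hepatocyte markers were 587 to 2469 CPM in Set 1, 574 to 1556 CPM in Set 2, 481 to 717 CPM in Set 3 and 523 to 2680 CPM in Set 4. The 8 endothelial markers, of which 5, 5, 3 and 3 had counts in Sets 1 to 4, summed to 1.54 to 3.84 CPM in Set 1 and 0 to 3.08 CPM in the others. Among them Lyve1 had medians of 1.53, 0.280, 0.707 and 0.352 CPM in Sets 1 to 4, and like Notch1 it passed the filter through Set 1. The part of these markers in the differences between sets was not tested.

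Within sets, Jag1, Notch2 and Rbpj had the largest spread between organoids, relative to genes of similar level, among the members that passed the filter. The biological coefficient of variation (BCV), which is the spread between organoids beyond counting noise, was 0.373 for Jag1, 0.355 for Notch2 and 0.333 for Rbpj. Divided by the BCV that edgeR expects at the same level, these were 1.36, 1.25 and 1.21, against a median of 0.925 over 13927 genes. The ratios of Dll1, Nrarp and Jag2 were 1.12, 1.07 and 1.00, also above this median, and that of the ductal marker Sox9 was 1.41. Hes1 had a BCV of 0.242 and a ratio of 0.896, and Notch1 a ratio of 0.653. How many of all genes reach such ratios was not counted. No test was made of these ratios.

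In Sets 1 and 4, organoids with more Notch2 also had more of the ductal transcription factor Sox9, and these were the 2 of 27 relations that passed the adjustment over all of them. Relations were computed within Sets 1, 2 and 4, and Set 3, with 5 organoids, was left out as too small. On log2 CPM, Pearson's r of Notch2 with Sox9 was 0.88 in Set 1 (n = 8, exact permutation P-value 0.00102, adjusted 0.0137, Spearman's rho 0.93, P-value 0.00223) and 0.83 in Set 4 (n = 12, permutation P-value 0.00082, adjusted 0.0137, Spearman's rho 0.72, P-value 0.0112). In Set 2 it was 0.62 (n = 10, permutation P-value 0.0694, adjusted 0.125, Spearman's rho 0.47, P-value 0.18). Without the 2 organoids farthest from the median of Notch2, r was 0.89 in Set 1, 0.64 in Set 4 and 0.27 in Set 2. The adjusted values for Spearman's rho were 0.0603, 0.101 and 0.27 in Sets 1, 4 and 2, so the rank relation did not pass the adjustment. With the organoids of Set 1 that the study left out, r over all 10 was 0.15.

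Notch2 and its ligand Jag1 had Pearson's r of 0.86 in Set 1 (n = 8, exact permutation P-value 0.00843, adjusted 0.0569), 0.70 in Set 2 (n = 10, permutation P-value 0.0273, adjusted 0.0675) and 0.41 in Set 4 (n = 12, permutation P-value 0.183, adjusted 0.26). Spearman's rho was 0.79, 0.65 and 0.42 with permutation P-values of 0.0279, 0.0498 and 0.178. Without the 2 organoids farthest from the median of Notch2, r was 0.76, 0.71 and 0.42. Jag1 and Hes1 had r of 0.79 in Set 1, 0.79 in Set 2 and 0.00349 in Set 4, with adjusted permutation P-values of 0.0675, 0.0553 and 0.992. Without the 2 organoids farthest from the median of Jag1 these were 0.13, 0.61 and 0.46, so that the relation in Set 1 rests on those 2. Notch2 with Hes1 (0.75, 0.57 and 0.32) and Hes1 with Sox9 (0.54, 0.71 and 0.42) were positive in Sets 1, 2 and 4 and did not pass the adjustment either. Without the 2 organoids farthest from the median of Notch2, r with Hes1 was 0.47, 0.49 and −0.29, so the sign in Set 4 rests on those 2. Without the 2 farthest from the median of Hes1, r with Sox9 was 0.22, 0.50 and 0.49.

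Library size moved with the same genes. The r of Notch2 with log10 total counts was −0.69 in Set 1, 0.21 in Set 2 and −0.66 in Set 4, and that of Jag1 was −0.77, 0.21 and −0.59, with adjusted permutation P-values between 0.0675 and 0.626. Sox9 had −0.47, 0.68 and −0.65. When every library was thinned to the same total, r of Notch2 with Sox9 was 0.86 in Set 1 and 0.77 in Set 4, with adjusted permutation P-values of 0.13 and 0.0788.

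**Figure D5:**
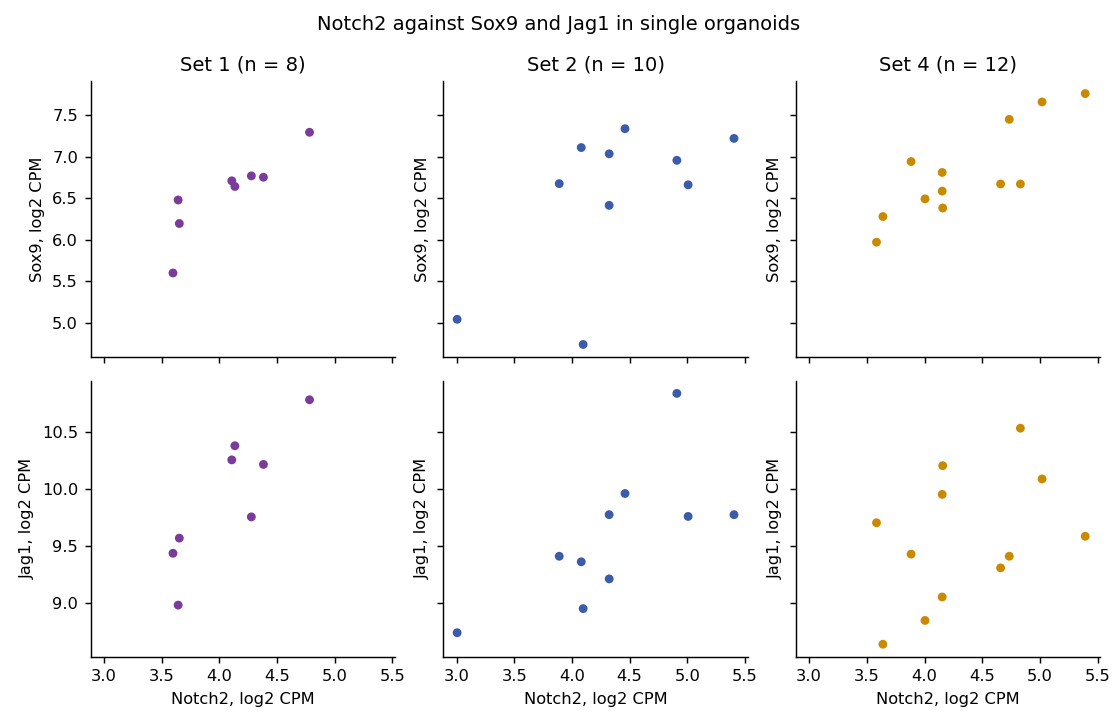
Log2 CPM of Notch2 (x axis) against Sox9 (top) and Jag1 (bottom) in single organoids of Sets 1, 2 and 4; each point is an organoid, and the axes do not start at 0. Pearson's r for Notch2 with Sox9 is 0.88, 0.62 and 0.83, and for Notch2 with Jag1 0.86, 0.70 and 0.41.

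Over the 35 organoids, with each set centred on its mean, the genes most alike to Notch2 among 6487 were Rrn3 (r = 0.85), Nup98 (0.83), Pan3 (0.80), Itpripl1 (0.79) and Hnrnpl (0.78). For Jag1 they were Actb (0.84), Hsd17b7 (0.84), Inafm2 (0.83), Spry2 (0.82) and Rrn3 (0.82). For Hes1 they were Rab14 (0.88), Sec62 (0.86), Srek1ip1 (0.84), Pitpnc1 (0.84) and Ptpn1 (0.83). The points share libraries and depth, and on the same scale r with log10 total counts was −0.40 for Notch2, −0.46 for Jag1 and −0.12 for Hes1, and −0.48 for Actb, by which the input of the single organoid libraries was normalised. Among the members, the highest r were 0.63 for Jag1 with Notch2, 0.56 for Jag1 with Rbpj, 0.55 for Hes1 with Notch2 and 0.54 for Hes1 with Jag1. Jag2 was apart from these, with r of 0.06 to Jag1, −0.04 to Notch2 and −0.36 to Hes1.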

How the data were processed

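Total RNA of 3 dome and 3 suspension cultures and of bulk cultures at 2 passages, and mRNA captured from single organoids, were sequenced as 3′-end libraries with molecular identifiers. The deposited values are gene counts, which the authors made with zUMIs, STAR, SAMtools 1.9 and featureCounts on GRCm38 with Ensembl annotation 93. Libraries were down-sampled within zUMIs, and it is not stated whether the tables hold reads or molecules. The submitters' processing notes also name R 3.6.3, edgeR 3.28.1 and limma 3.42.2.

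Counts were analysed in R 4.3.3 with edgeR 4.0.16: filterByExpr with a minimum count of 3, TMM, quasi-likelihood F-tests and Benjamini-Hochberg adjustment at 0.05, over all 6 comparisons together for the sets. SEs were derived from the F statistic. CPM are counts over the TMM-scaled library size of the genes kept. The 2 technical replicates of a sample, which differed by 1.12 to 2.77 chi-square per degree of freedom, were added up. Log2 CPM for relations used a prior count of 2, with two-sided permutation P-values, exact for 8 organoids and from 100000 permutations otherwise (SciPy 1.17.1). The study's own test, limma-voom (limma 3.58.1), and DESeq2 1.42.0 were alternatives. Each fit was also tested on simulated counts.

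The members, lists and tests were chosen with earlier results of these data known. The 10 members were named in every comparison, and of the pathway genes called at most the 6 with the largest log2 fold-changes in each direction above an average log2 CPM of 2. Genes most alike were the 5 with the highest r above an average log2 CPM of 4. Whether same-numbered samples pair was checked by the correlation of their deviations from the group means, which was 0.153, 0.165 and 0.191 for cultures 1 to 3, where the labels do not say that the number is the pool, and 0.11, 0.0283 and 0.108 for the sets of the passage experiment, where both passages come from 1 mouse. Where nothing says that samples of a group came from separate animals, P-values measure only the spread between these samples. Counts set the precision: at the smallest total, a gene at 1 CPM has about 1 count. Positions are from GENCODE M21 (GRCm38), and promoters from RefSeq.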

Additional observations from a re-analysis of the deposited data

Results flagged for a closer look

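In 24 groups of organoids tested for a sample far from the rest (8 members in Sets 1, 2 and 3), 1 stood out, where chance gives about 1 in 20. Hes1 was at 569.3 CPM in organoid 5 of Set 1, while the other 7 lay between 220 and 339 CPM. Its gap to the nearest organoid was 0.546 of the range of the set on the log2 scale, above the limit for 8 samples.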

How the results depend on the processing

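Called members, 2 between domes and suspension, stayed at 2 or 3 under the 8 alternatives other than omitting a culture, and at 1 to 2 when 1 culture was omitted. Of these 2, Notch2 passed the filter only through the suspension cultures. The member gained was Rbpj, called without a filter (adj. P-value 0.0123), by limma-voom (0.0345), with the replicate block (0.0218) and with library totals (0.0135), an alternative chosen after the TMM factors were seen. Between passages the 2 called members became 1 with library totals and 1 with technical replicate 2 only, where Hes1 was not called (adj. P-values 0.0561 and 0.0703), 3 with the replicate block and 1 to 2 when 1 library was omitted. Without a filter the 2 called were Dll1 and Jag1 (adj. P-value 0.000113), and Hes1 was not (0.0545). Of the 10 calls between sets, 3 were of Notch1, which passed the filter only through Set 1 and is therefore described above without a test. The 10 calls became 4 at a minimum count of 10, which removes Notch1, Dll1 and Nrarp from the test. After thinning to the smallest total, which removes Notch1 and Nrarp, they became 1. They became 5 with the replicate block, for which the numbers of organoids give no pairing (the deviations of organoids with the same number in 2 sets correlated at −0.366 to 0.414, with a median of 0.0564), 6 with all 42 organoids and 7 to 10 when 1 organoid of Set 3 was omitted. By limma-voom there were 8 calls between sets, without those of Rbpj for Sets 1 and 3 over Set 4. The 2 relations within sets past the adjustment became 10 with all 42 organoids and 0 after thinning, and stayed at 2 with a prior count of 0.5. No result past its threshold in any setting changed sign. Beyond the loss of tested genes and depth by construction, the cause of these changes was not tested. Notch1, Notch3, Hey1 and Nrarp are near the limit of depth, as are Notch2 in domes and Dll1 in single organoids, domes and suspension cultures. Smaller differences in them would not be detectable here.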
